A study of Homo sapiens with 44 samples.

Results

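Accessibility around 3 genes of the type 2 response, POSTN, CCL26 and CCL24, was followed in Ccd18-Co, a fibroblast line from human colon. The 38 peaks described here are those whose name in the deposited table holds one of these genes; the genes themselves were picked with earlier results of these data known. They are 23 peaks named for POSTN, 11 for CCL26 and 4 for CCL24, of 407383 peaks in all. ATAC-seq, in which a transposase inserts sequencing adaptors into open DNA, was done on 44 libraries in 11 groups of 4. The groups were unstimulated cells and cells given 1 of 10 cytokines in serum-free medium. IL-1β was given at 0.1 ng/ml by the labels and the study's methods, while a figure legend of the study gives a lower dose. The others were IL-13, OSM, IL-6, TGFβ1, TNF, IFNα, IFNγ, IL-17A and IL-22, each at 10 ng/ml. All groups come from the same line, so they model a single fibroblast source, and the labels do not say whether replicates were separate cultures. If they were not, the p-values measure only a technical spread.

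IL-13 and IL-4 act through a receptor that pairs IL4R with IL13RA1 and signals through JAK kinases to the transcription factor STAT6. POSTN codes for periostin, a secreted matrix protein that binds collagen and is a known marker of IL-13 exposure in fibroblasts and airway epithelium. CCL26 and CCL24 code for eotaxin-3 and eotaxin-2, chemokines that recruit eosinophils through the receptor CCR3. CCL26 and CCL24 lie next to each other on chromosome 7, and POSTN lies on chromosome 13. Accessibility says whether DNA is open and does not measure RNA or protein.

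The name of a peak holds a single gene, and it is not always the gene the peak lies in. By GENCODE v44, 6 of the 23 POSTN peaks overlap POSTN, 4 are intergenic and 13 lie in introns of TRPC4, a cation channel gene upstream of POSTN. A CCL26 peak that the table calls intronic (chromosome 7, 75772121 to 75772621, hg38) is centred 160 bases upstream of the canonical CCL26 start at 75772211. It overlaps coding exon sequence of that transcript, and lies inside the gene because a longer CCL26 transcript starts at 75789896. This peak is called the CCL26 start site peak here. The POSTN start site peak (chromosome 13, 37598556 to 37599056) is centred 38 bases upstream of the start at 37598768. The CCL24 start site peak (chromosome 7, 75823121 to 75823621) is centred 15 bases from a start at 75823356, and the canonical CCL24 start, at 75813806, has its nearest peak 951 bases upstream.

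The bases upstream of the POSTN and CCL24 starts are shown because the peaks around them differ in their calls with IL-13. Both genes are on the minus strand, and each sequence runs 5′ to 3′ on that strand up to the base before the start (for POSTN, before its farthest upstream start at 37598844). Capitals mark any pair of TTC and GAA with a gap of 4 bases, the spacing that STAT6 prefers, or of 3 bases, the spacing of other STAT factors.
POSTN, chr13:37598845-37599056, minus strand: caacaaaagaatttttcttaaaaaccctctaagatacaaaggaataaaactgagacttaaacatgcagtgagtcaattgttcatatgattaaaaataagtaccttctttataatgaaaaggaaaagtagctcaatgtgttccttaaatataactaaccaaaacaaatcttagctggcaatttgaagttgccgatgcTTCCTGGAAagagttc
CCL24, chr7:75823357-75823621, minus strand: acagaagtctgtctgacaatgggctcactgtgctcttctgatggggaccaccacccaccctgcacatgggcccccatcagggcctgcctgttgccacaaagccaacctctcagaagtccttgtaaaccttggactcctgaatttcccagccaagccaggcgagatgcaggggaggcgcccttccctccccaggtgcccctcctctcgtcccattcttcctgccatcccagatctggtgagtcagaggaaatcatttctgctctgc

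The POSTN stretch holds no match with a gap of 4 bases and 1 with a gap of 3 bases, TTCCTGGAA, from 84 to 92 bases upstream of the start at 37598768. The CCL24 stretch holds neither. Of the 38 peaks, 8 hold the string with a gap of 4 bases (21.1%), against 14.4% of all 407383 peaks of the same width and 6.44% of 35116 RefSeq promoters of 300 bases. Strings were searched on both strands. The string with a gap of 3 bases is in 6 of the 38 peaks (15.8%), 17.2% of all peaks and 7.66% of the promoters. A match is a description of the letters and not a measured binding site.

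Levels are given as coverage per Mb, the summed base coverage of a peak for each Mb of the same sum over all peaks of the library, after a composition factor for the library. Changes are log2 differences of coverage per Mb plus 0.5, which understate the change of low peaks. They carry the standard error and the adjusted p-value of limma over 407176 tested peaks, and a peak is called where that value is under 0.05. The total ran from 148.8 to 823.1 Mb and 1 read of 75 bases was worth 0.0912 to 0.505 per Mb. All 12 fibroblast marker genes examined had a start site peak, with means of 1.14 to 9.52 per Mb. Among markers of other cells, 2 of 5 epithelial, 3 of 3 endothelial, 2 of 4 leukocyte and 3 of 3 smooth muscle genes had one. The leukocyte gene PTPRC had a mean of 8.27 per Mb (3.44 to 14.1 over the libraries), CD3E and LYZ had no tested start site peak, and the smooth muscle gene ACTG2 had a mean of 23.3 per Mb. The part of other cell types in the results was not tested.

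The library labelled IL-6 replicate 4 stood apart from the rest of its group. It was the shallowest library, at 148.8 Mb, and on the first principal component it lay at -49.7, with the other IL-6 libraries at -15.9, -18.2 and -19.3 and the IL-13 libraries at -33.4 to -39.9. Over the 5000 most variable peaks, centred on their means, its mean correlation was 0.405 with the IL-13 libraries and 0.159 with the other IL-6 libraries. IL-6 replicates 2 and 3 were also closest to IL-13 by this measure, and none of the 4 unstimulated libraries was closest to its own group. Its label is kept, and IL-6 values at the members are given with and without it.

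With IL-13, 4 of the 38 peaks were called, against 1.61% of all tested peaks. Without unstimulated replicate 4, IL-13 called 3 of the 38 and 4091 of all tested peaks in place of 6553. IL-13 raised 3, the CCL26 start site peak, the POSTN start site peak and a peak inside POSTN, and lowered 1, a POSTN peak in an intron of TRPC4. None of the 4 CCL24 peaks was called with any of the 10 cytokines, and the smallest adjusted p-value for a CCL24 peak against unstimulated cells was 0.312 by limma. TNF called 4 of the 38 (background 4.37% of tested peaks), TGFβ1 2 (3.51%), OSM 2 (2.85%), IL-1β 1 (3.5%), IFNα 1 (0.847%) and IL-6 1 (0.107%). IFNγ, IL-17A and IL-22 called 0 by limma, against 1.75%, 0.0398% and 0.0366% of tested peaks, and 4, 1 and 1 of the 38 at an unadjusted p under 0.05, where the shares of all tested peaks were 9.83%, 6.45% and 7.15%. Over all 10 cytokines, 9 of the 38 peaks were called at least once, against 11.8% of all tested peaks.

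**Figure D1:**
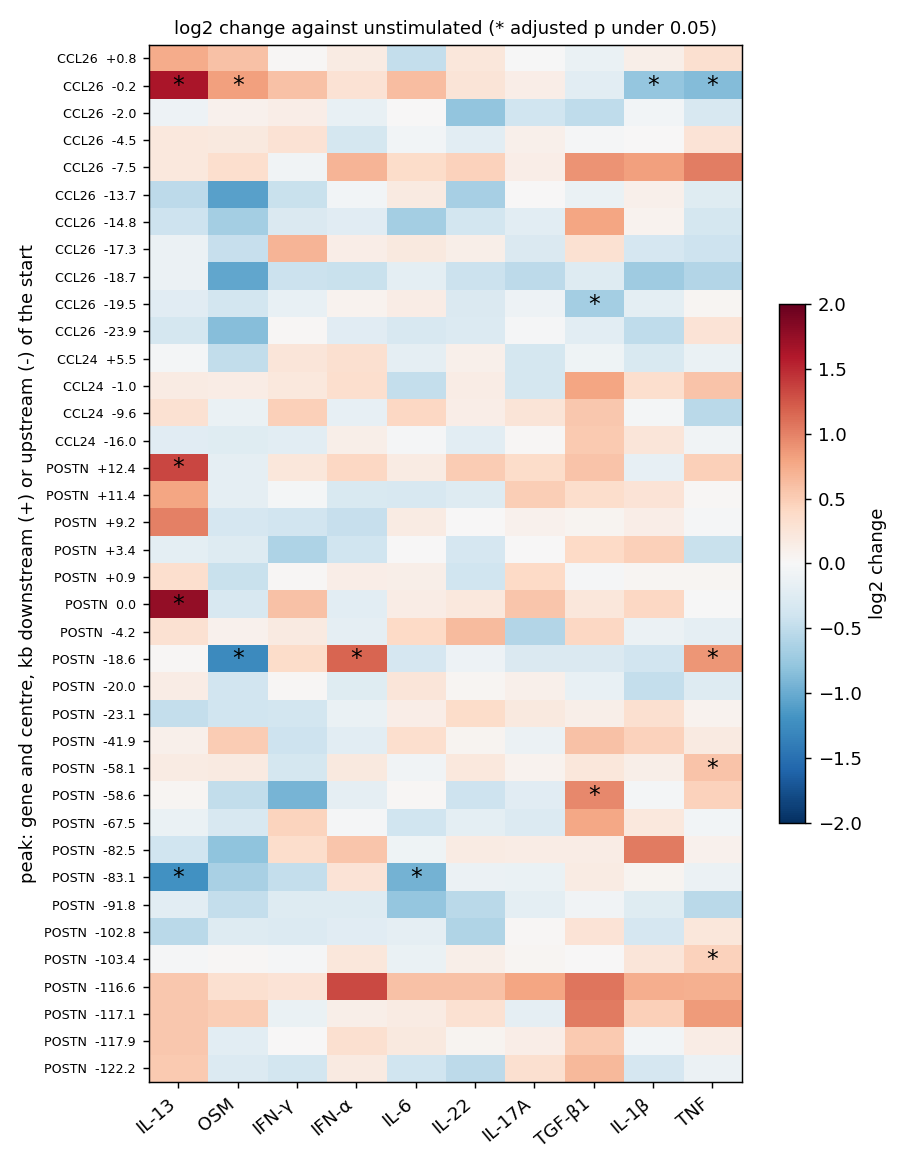
Log2 change of coverage per Mb plus 0.5 against unstimulated cells for the 38 peaks (rows, named by gene and by the distance of the peak's centre from the canonical start in kb) under each of 10 cytokines (columns), with red for higher and blue for lower. Stars mark adjusted p-values under 0.05. Under IL-13 the CCL26 and POSTN start site peaks stand at 1.63 and 1.76, and the 4 CCL24 rows have no star.

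The CCL26 start site peak was called with 4 cytokines, higher with IL-13 and OSM and lower with TNF and IL-1β. Unstimulated libraries held 6.03, 8.74, 8.26 and 8.72 per Mb, and IL-13 libraries held 31.0, 24.2, 21.4 and 25.7 per Mb. Every IL-13 library was above every unstimulated one. Over all tested peaks, groups did not overlap the unstimulated one in either direction at 5.86% with IL-13 and 11.7% with OSM. In bulk libraries, more cells with open DNA and more open DNA in each cell cannot be told apart. The means were 25.6 ± 4.04 and 7.94 ± 1.29 per Mb (SD, n = 4 each), a ratio of 3.22 and a log2 change of 1.63 ± 0.19 (SE, adjusted p = 2.43e-11, limma). OSM, a cytokine of the IL-6 family, gave 14.8, 10.8, 18.7 and 14.0 per Mb, also all above the unstimulated libraries. Its log2 change was 0.82 ± 0.19 (adjusted p = 0.0034, limma), which was not called without OSM replicate 3 (adjusted p = 0.0552). TNF and IL-1β, inflammatory cytokines, lowered the same peak. TNF libraries held 3.87, 3.67, 4.16 and 4.58 per Mb, a log2 change of -0.87 ± 0.19 (adjusted p = 0.000676, limma). IL-1β libraries held 5.40, 4.15, 4.00 and 4.19 per Mb, a log2 change of -0.77 ± 0.19 (adjusted p = 0.00551, limma), and this call was lost with limma voom weights (adjusted p = 0.112).

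At the CCL26 start site peak the order of group means was IL-13, IL-6, OSM, IFNγ, IFNα, IL-22, IL-17A, unstimulated, TGFβ1, IL-1β and TNF. IFNγ libraries held 11.1 to 13.4 per Mb, IFNα 7.56 to 12.5, IL-22 7.36 to 11.8, IL-17A 6.32 to 9.82 and TGFβ1 5.22 to 8.78 per Mb, none of them called against unstimulated cells. From OSM down to TNF, each pair of neighbours in this order overlapped in range. The place of IL-6 rested on a single library. Its replicates 1 to 3 held 8.89, 9.21 and 8.69 per Mb, inside the range of the IL-22 and IFNα groups, and the library labelled IL-6 replicate 4 held 31.7 per Mb, above every IL-13 library. The IL-6 mean was 14.6 ± 11.4 per Mb with it (n = 4) and 8.93 ± 0.26 per Mb without it (SD, n = 3). The log2 change against unstimulated cells was 0.62 with it (adjusted p = 0.223, limma) and 0.17 without it (adjusted p = 0.983), so IL-6 was not called in either case.

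**Figure D2:**
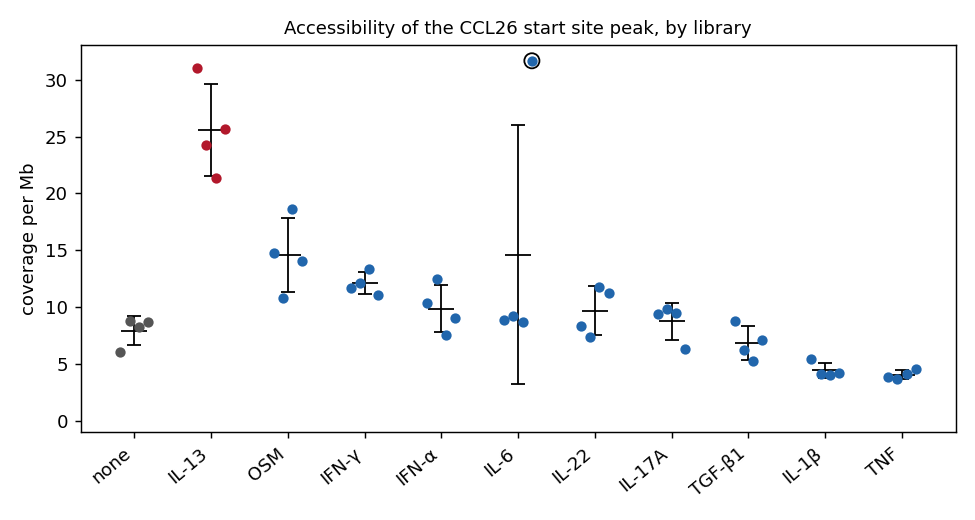
Coverage per Mb at the CCL26 start site peak in each of the 44 libraries (points), by group, with the group mean and SD as black bars; IL-13 is red, unstimulated cells (none) grey, other cytokines blue, and the circled point is the library labelled IL-6 replicate 4. The IL-13 libraries lie between 21.4 and 31.0 per Mb, the unstimulated ones between 6.03 and 8.74, and the circled point at 31.7.

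IL-13 was also compared with each other cytokine, since a call with IL-13 alone does not show a difference from the rest. At the CCL26 start site peak IL-13 was higher than each of the 9 others. The log2 difference was 2.50 from TNF, 2.40 from IL-1β, 1.84 from TGFβ1, 1.5 from IL-17A, 1.37 from IL-22, 1.34 from IFNα and 1.04 from IFNγ, each ± 0.19 (SE). The corresponding adjusted p-values by limma ran from 1.33e-26 for TNF to 2.82e-05 for IFNγ. The smallest differences were from OSM, 0.80 (95% interval 0.42 to 1.19, adjusted p = 0.00279, limma), and from IL-6, 1.01 (0.63 to 1.40, adjusted p = 0.00108, limma). Without the library labelled IL-6 replicate 4 the difference from IL-6 was 1.45 (adjusted p = 9.94e-09). Of the 38 peaks, IL-13 differed from TGFβ1 in 6 (background 8.69% of tested peaks), IL-1β in 6 (8.27%), TNF in 6 (7.63%), IL-17A in 2 (2.57%), IFNγ in 5 (3.96%), IFNα in 6 (3.5%), OSM in 5 (4.2%), IL-6 in 3 (0.259%) and IL-22 in 3 (1.1%). Without the library labelled IL-6 replicate 4, the count against IL-6 was 3 of the 38 and 2176 of all tested peaks in place of 1054.

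**Figure D3:**
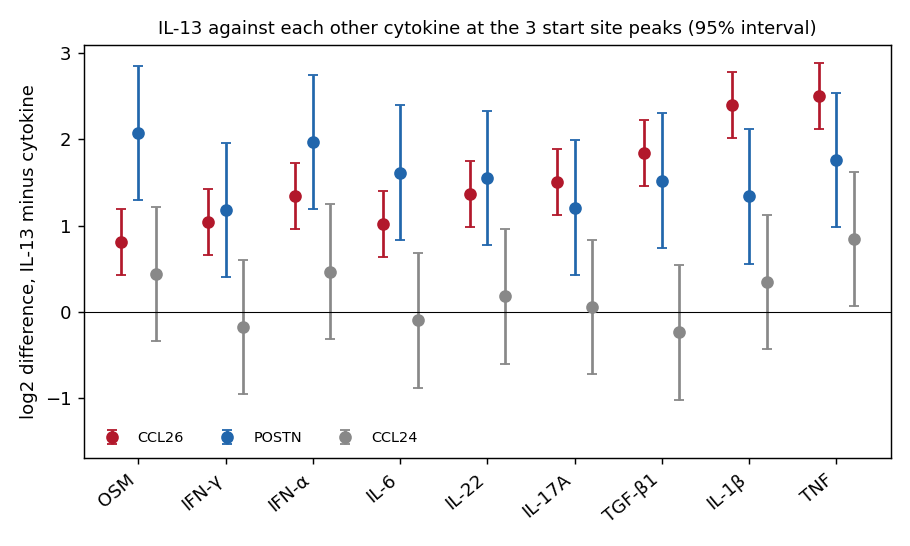
Log2 difference of IL-13 minus each of the 9 other cytokines (cytokines along the horizontal axis, difference on the vertical axis) at the start site peaks of CCL26 (red), POSTN (blue) and CCL24 (grey), with 95% intervals from limma. All CCL26 and POSTN intervals lie above 0, and 8 of the 9 CCL24 intervals include 0.

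The POSTN start site peak was low in every group and highest with IL-13. Unstimulated libraries held 0.339, 0, 1.59 and 0.501 per Mb, against 2.51, 4.18, 2.28 and 2.42 per Mb with IL-13. The IL-13 libraries were all above the unstimulated ones. The means were 2.85 ± 0.89 and 0.608 ± 0.688 per Mb (SD, n = 4 each), or 14.3 and 3.1 read lengths of coverage a library. The log2 change was 1.76 ± 0.40 (SE, 95% interval 0.98 to 2.54, adjusted p = 0.00266, limma). It was not called without unstimulated replicate 2 (adjusted p = 0.0579) or with limma voom weights (adjusted p = 0.226), under which none of the differences from other cytokines below was called either. In the other 9 cytokine groups the means ran from 0.361 per Mb with OSM to 0.95 per Mb with IFNγ, and no library among them was above 1.23 per Mb, so none reached an IL-13 library. Their ranges overlapped that of the unstimulated libraries in every case.

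IL-13 differed from 7 of the other 9 cytokines at the POSTN start site peak, by log2 differences of 1.34 from IL-1β (adjusted p = 0.0141, limma) to 2.08 from OSM (adjusted p = 4.49e-05). It did not pass the threshold against IFNγ (1.18, 95% interval 0.40 to 1.96, adjusted p = 0.0705) or IL-17A (1.21, 0.43 to 1.99, adjusted p = 0.0791). Against IL-6 the difference was 1.61 (adjusted p = 0.0323) with the library labelled IL-6 replicate 4 and 1.85 (adjusted p = 0.00618) without it. The IL-6 difference was also lost without IL-6 replicate 1 or 2 or IL-13 replicate 1, 2 or 3 (adjusted p = 0.0544 to 0.224). The differences from IL-1β without IL-1β replicate 2 or IL-13 replicate 2, from IL-22 without IL-22 replicate 2 or 4 or IL-13 replicate 2, and from TGFβ1 without TGFβ1 replicate 2 were lost too (adjusted p = 0.0668 to 0.115). With a pseudocount of 0.1 the differences from IL-1β, IL-22 and IL-6 were lost (adjusted p = 0.171, 0.2 and 0.158). The library labelled IL-6 replicate 4 held 1.23 per Mb here, about the level of the top library of the IL-22 group at 1.19 per Mb.

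Inside POSTN, a peak over a coding exon and its introns (chromosome 13, 37586129 to 37586629) was also called with IL-13. It held 0.353, 0.374, 0 and 0 per Mb in unstimulated libraries, all at or under 3 read lengths, and 2.01, 0.79, 2.28 and 0.327 per Mb with IL-13. The lowest IL-13 library fell within the unstimulated range. The IL-13 mean of 1.35 per Mb was 2.43 times the mean floor of 3 reads in the unstimulated libraries. IL-13 replicates 2 and 4 were themselves under their floors of 0.945 and 0.341 per Mb, so this ratio is not a lower bound. The fitted log2 change was 1.33 ± 0.37 (SE, adjusted p = 0.0328, limma). The call was lost without unstimulated replicate 3 or 4 or IL-13 replicate 1 or 3 (adjusted p = 0.143 to 0.208). It was also lost with a pseudocount of 0.1 (adjusted p = 0.137), limma voom weights (0.346), library quality weights (0.0788) or only the groups compared (0.0776).

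The CCL24 start site peak showed no call. It held 1.91, 0.0759, 0.75 and 0.681 per Mb in unstimulated libraries and 1.33, 1.26, 1.05 and 0.452 per Mb with IL-13, and the groups overlapped. The log2 change was 0.30 ± 0.40 (SE, adjusted p = 0.855, limma), with a 95% interval of -0.48 to 1.08 that includes no change and a rise of over 2-fold. Means over the 11 groups ran from 0.367 per Mb with TNF to 1.37 per Mb with TGFβ1, or 2.21 to 8.47 read lengths a library. A moderate change may have gone uncalled here, and a detection limit was not computed. The peak 951 bases upstream of the canonical CCL24 start had a mean of 0.626 per Mb with IL-13 and 0.558 per Mb in unstimulated cells. The other 2 CCL24 peaks, at 75808026 and 75829581, had means over all libraries of 0.715 and 1.48 per Mb. By mean level the 4 CCL24 peaks stood at percentiles 46.3 to 68.3 of tested peaks, the CCL26 start site peak at 95.1 and the POSTN start site peak at 53.7.

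**Figure D4:**
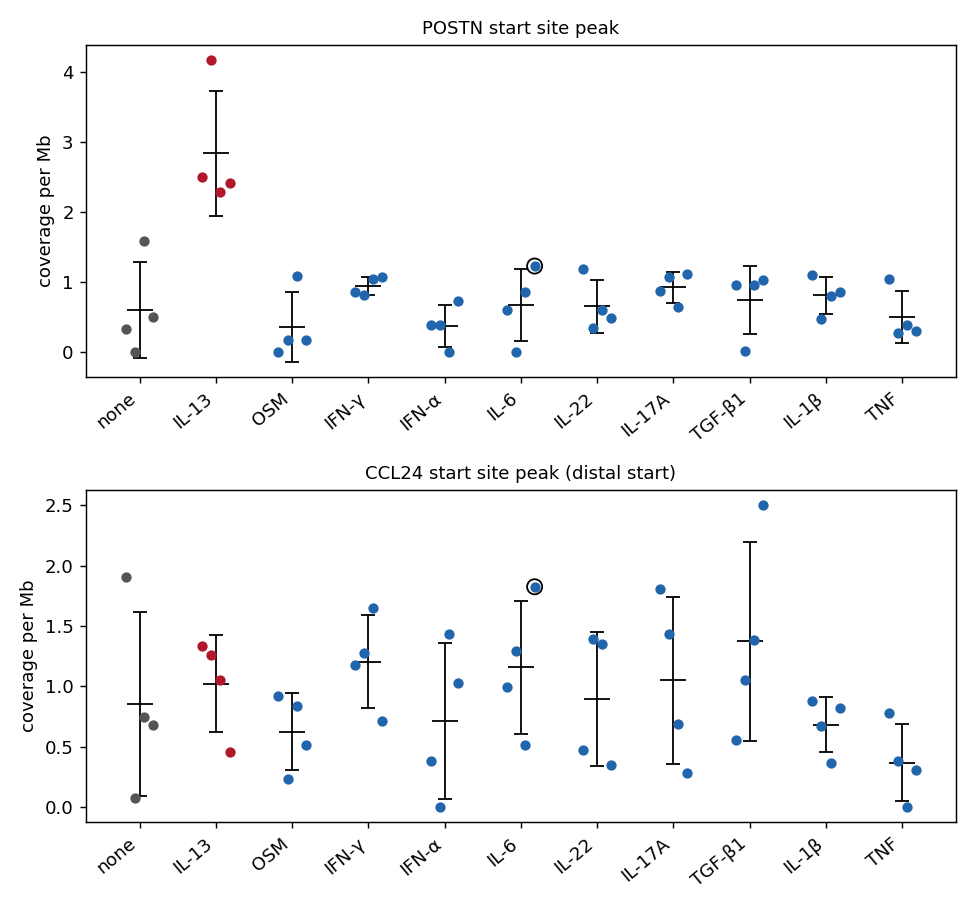
Coverage per Mb in each of the 44 libraries (points) at the POSTN start site peak (top) and the CCL24 start site peak (bottom), with group mean and SD as black bars; IL-13 is red, unstimulated cells (none) grey, other cytokines blue, and the circled point is the library labelled IL-6 replicate 4. All 4 IL-13 libraries are at 2.28 per Mb or above for POSTN, over every other library, while for CCL24 they overlap the unstimulated libraries.

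The one member lowered by IL-13 lies 82991 bases upstream of the nearest POSTN start in an intron of TRPC4 (chromosome 13, 37681585 to 37682085). Unstimulated libraries held 7.68, 8.03, 7.11 and 10.7 per Mb, and IL-13 libraries 1.95, 3.97, 3.04 and 4.77 per Mb, with no overlap. The log2 change was -1.22 ± 0.21 (SE, adjusted p = 2.31e-05, limma), a ratio of 0.41 of means. IL-13 was lower than 7 of the 9 other cytokines, and not past the threshold against OSM, whose libraries held 4.38 to 6.27 per Mb, or IL-6. The difference from IFNγ was lost without IL-13 replicate 1 or 3 or IFNγ replicate 1, 2 or 4 (adjusted p = 0.0521 to 0.256). The IL-6 libraries held 5.84, 4.97, 5.07 and 1.72 per Mb, the last of them the library labelled IL-6 replicate 4. IL-6 was called against unstimulated cells with that library (log2 change -0.95, adjusted p = 0.0249, limma) and not without it (-0.60, adjusted p = 0.722), nor without unstimulated replicate 2 (adjusted p = 0.0584) or 4 (adjusted p = 0.19). The difference of IL-13 from IL-6 was -0.27 with that library (adjusted p = 0.757) and -0.61 without it (adjusted p = 0.274). The central 201 bases are shown because this is the member that IL-13 lowered, with capitals on the AP-1 string TGA and TCA with a gap of 1 base.
TRPC4 intron, chr13:37681735-37681935, plus strand: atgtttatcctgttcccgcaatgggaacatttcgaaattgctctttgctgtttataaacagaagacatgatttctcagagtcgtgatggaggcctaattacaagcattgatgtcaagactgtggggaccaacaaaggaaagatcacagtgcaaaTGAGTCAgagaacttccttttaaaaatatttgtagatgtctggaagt

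The stretch has 1 AP-1 string and neither STAT string. The POSTN and CCL24 start site peaks also hold 1 AP-1 string each, left in lower case in the stretches printed earlier. AP-1 strings, which FOS and JUN proteins bind, were in 17 of the 38 peaks (44.7%), against 25.7% of all peaks of this width and 7.71% of the RefSeq promoters. The fourth string searched, GGG and TTTCC with a gap of 2 bases as in many NF-κB sites, was in 0 of the 38 peaks and in 3.71% of all peaks.

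An intergenic peak 18558 bases upstream of the nearest POSTN start (chromosome 13, 37617152 to 37617652) changed with other cytokines and not with IL-13. Unstimulated libraries held 8.28, 4.82, 7.5 and 6.01 per Mb. IFNα gave 13.2, 16.3, 14.3 and 17.5 per Mb, a log2 change of 1.16 ± 0.22 (adjusted p = 0.000207, limma). TNF gave 13.0, 13.4, 10.7 and 12.7 per Mb, a log2 change of 0.88 ± 0.22 (adjusted p = 0.00377). OSM gave 1.52, 3.15, 4.06 and 1.64 per Mb, a log2 change of -1.27 ± 0.22 (adjusted p = 7.68e-06). The libraries of these 3 cytokines did not overlap the unstimulated ones, and the TNF call was lost without unstimulated replicate 2 (adjusted p = 0.0509). Such a lack of overlap was found at 5.04% of all tested peaks with IFNα, 8.78% with TNF and 11.7% with OSM. IL-13 libraries held 5.31 to 9.02 per Mb, a log2 change of 0.03 with a 95% interval of -0.40 to 0.46, and IL-13 was below IFNα by 1.14 (adjusted p = 6.7e-05) and above OSM by 1.30 (adjusted p = 1.96e-06).

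**Figure D5:**
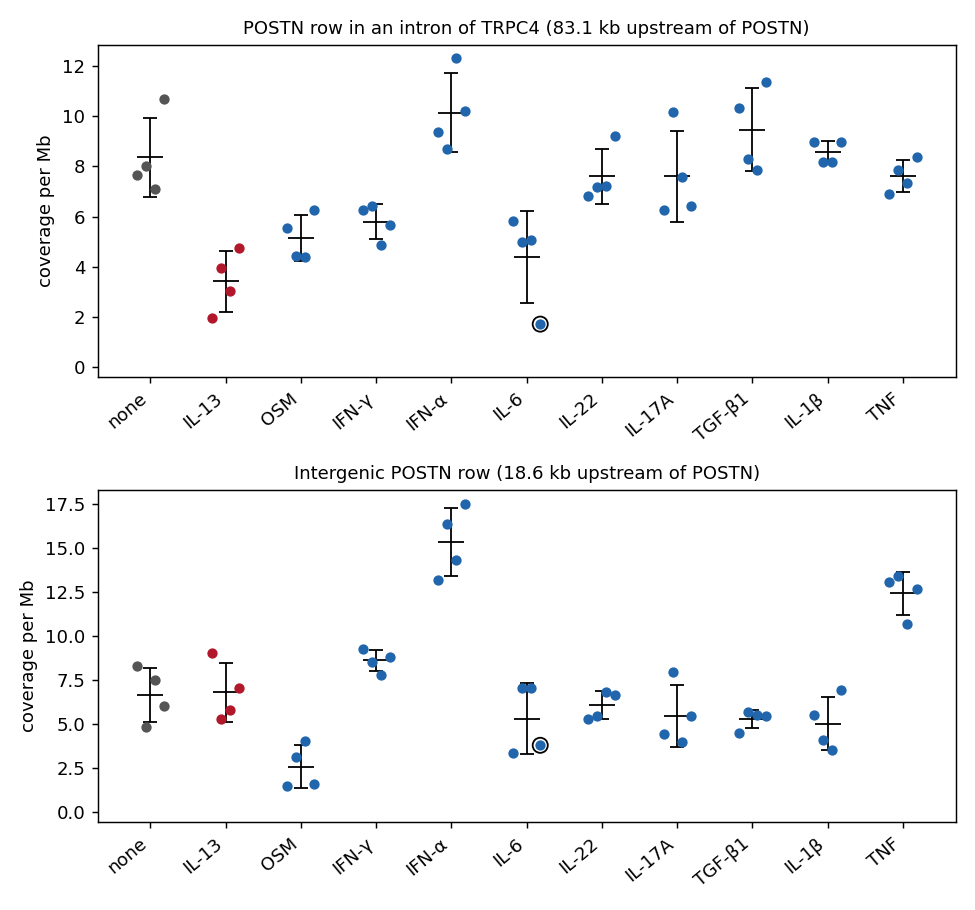
Coverage per Mb in each of the 44 libraries (points) at the POSTN peak in a TRPC4 intron, 82991 bases upstream of POSTN (top), and at the intergenic POSTN peak 18558 bases upstream (bottom), with group mean and SD as black bars; IL-13 is red, unstimulated cells (none) grey, other cytokines blue, and the circled point is the library labelled IL-6 replicate 4. Panel titles count from the canonical POSTN start; in the top panel IL-13 libraries reach at most 4.77 per Mb and unstimulated ones at least 7.11; in the bottom panel IFNα libraries lie at 13.2 per Mb and above, and OSM libraries at 4.06 and below.

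In the same TRPC4 introns, TNF raised 2 more POSTN peaks. One (37656576 to 37657076) is the most open of the 38, with unstimulated libraries at 21.9 to 30.2 per Mb and TNF libraries at 34.0 to 40.6 per Mb, a log2 change of 0.58 ± 0.12 (adjusted p = 9.41e-05, limma). The other (37701943 to 37702443) had 12.8 to 19.2 per Mb in unstimulated libraries and 19.9 to 26.5 per Mb with TNF, a log2 change of 0.47 ± 0.14 (adjusted p = 0.0289), which was lost without unstimulated replicate 3 or 4 or TNF replicate 1, 2 or 4 (adjusted p = 0.0549 to 0.231). TGFβ1, the main profibrotic cytokine of the set, raised a POSTN peak (37657115 to 37657615) from 1.79 to 3.01 per Mb in unstimulated libraries to 4.69 to 5.57 per Mb, a log2 change of 0.96 ± 0.30 (adjusted p = 0.0462). TGFβ1 lowered a CCL26 peak near the far start (75791423 to 75791923), from 7.47 to 10.1 per Mb to 3.70 to 7.48 per Mb, a log2 change of -0.68 ± 0.20 (adjusted p = 0.0277), where the 2 groups overlapped. The POSTN call was lost without any 1 of the 8 libraries compared or TNF replicate 4 (adjusted p = 0.0506 to 0.144), and the CCL26 call without unstimulated replicate 2 or 4 or TGFβ1 replicate 2 or 3 (adjusted p = 0.0813 to 0.183). This CCL26 peak, which covers the RefSeq start of the gene, did not rise with IL-13. Its mean was 7.55 per Mb with IL-13 (5.51 to 11.0) and 8.69 per Mb in unstimulated libraries, with no call.

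The 25 POSTN and CCL26 peaks not described above had log2 changes of -0.53 to 1.01 with IL-13 and a smallest adjusted p-value of 0.192. Over all cytokines the smallest adjusted p-value among these 25 was 0.0833, with IFNα. The median log2 change of the 38 peaks with IL-13 was 0.07, against -0.05 for all tested peaks.

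The scale moved some values. The median of all tested peaks was -0.22 with OSM and 0.15 with TGFβ1 under the main scaling, and 0.00 and -0.01 after cyclic loess, so changes with these cytokines are also given relative to the median. The relative change with OSM was 1.04 at the CCL26 start site peak and -1.05 at the intergenic POSTN peak. The relative changes with TGFβ1 were 0.81 at the POSTN peak and -0.83 at the CCL26 peak described above. With cyclic loess neither of these TGFβ1 calls held (adjusted p = 0.0815 at the POSTN peak and 0.068 at the CCL26 peak, limma). Among peaks with a log2 mean above 0 the medians were only 0.0017 with OSM and 0.010 with TGFβ1 under the main scaling. The peaks given relative to the median, at means of 2.46 to 10.8 per Mb, belong to that set. The shift lies in lower peaks, so the relative values do not correct these peaks at their own level.

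The IL-13 pathway was read at peaks within 1 kb of an annotated start. Of 13 receptor and signalling genes, 12 had such a peak, and IL-13 raised 3, lowered 0. Over all tested peaks IL-13 called 1.61% in either direction. Low peaks enter that share. With the filter at a log2 mean above 0, IL-13 called 8661 of fewer tested peaks, in place of 6553, so the share is higher among more open peaks. SOCS1, a feedback inhibitor of JAK kinases, rose from 13.4 to 28.5 per Mb (log2 change 1.05 ± 0.14, adjusted p = 6.06e-09, limma). CISH, another inhibitor of cytokine signalling, rose from 8.56 to 14.8 per Mb (0.75 ± 0.19, adjusted p = 0.0107). JAK1, a kinase of the receptor, rose from 10.1 to 16.3 per Mb (0.60 ± 0.17, adjusted p = 0.0301), and this call was lost without IL-13 replicate 3 (adjusted p = 0.394), IL-13 replicate 2 (adjusted p = 0.102) or any unstimulated library (adjusted p = 0.051 to 0.085), with a pseudocount of 0.1 (adjusted p = 0.0832) or with limma voom weights (adjusted p = 0.416). JAK1 was also raised by IL-17A, IFNγ, OSM, IL-6 and IL-22. Peaks of IL4R, IL13RA1, STAT6 and the rest of the list were not called with IL-13. IL13RA1 was raised by IL-1β and OSM, and SOCS3 by OSM. SOCS1 was also raised by IL-1β, IFNγ, IFNα, OSM, IL-6 and IL-22. The IL-6 change at SOCS1 was 0.83 with the library labelled IL-6 replicate 4 (adjusted p = 0.000524) and 0.75 without it (adjusted p = 0.0147), and at JAK1 0.80 with it (adjusted p = 0.0107) and 0.76 without it (adjusted p = 0.101).

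Of 22 genes known to respond to IL-4 or IL-13, 17 had a start site peak, and IL-13 raised 1, CCL11, and lowered 0. The share of all tested peaks called with IL-13 in either direction was 1.61%, and higher among more open peaks. CCL11 codes for eotaxin-1, the third ligand of CCR3 among the eotaxins, and its peak rose from 7.75 to 14.9 per Mb (log2 change 0.92 ± 0.24, adjusted p = 0.0136, limma). The call was lost without unstimulated replicate 4 (adjusted p = 0.177) or IL-13 replicate 1 (adjusted p = 0.0783). IL-1β lowered it to 2.21 per Mb (adjusted p = 6.17e-08), TGFβ1 to 3.34 per Mb (adjusted p = 0.000611) and OSM to 3.36 per Mb (adjusted p = 0.00143). In the same list CCL2 was lowered by TGFβ1 and raised by TNF, and TNC was lowered by OSM. Of 8 matrix partners of periostin, all had a start site peak and IL-13 raised or lowered 0. COL1A1, a collagen chain, was lowered by IL-1β from 9.13 to 4.25 per Mb (adjusted p = 0.000123), by TNF to 4.59 per Mb (adjusted p = 0.000865) and by OSM to 4.51 per Mb (adjusted p = 0.0013). CCN2 was lowered by IL-1β. CCR3, the receptor of the eotaxins, was called with 0 of the 10 cytokines.

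Peaks of other genes within 50 kb of the 3 genes gave no call with IL-13. Near POSTN 2 of 5 such peaks were called with another cytokine, near CCL26 4 of 21 and near CCL24 1 of 12. Over all tested peaks 11.8% were called with any of the 10 cytokines. The largest was a HIP1 peak 28486 bases from the canonical CCL26 start (75743475 to 75743975), at 11.7 per Mb in unstimulated cells and 2.04 per Mb with TNF (log2 change -2.29 ± 0.21, adjusted p = 2.24e-20, limma) and 4.36 per Mb with IL-1β (-1.42 ± 0.21, adjusted p = 1.65e-08). The same cytokines lowered the CCL26 start site peak. A HIP1 peak 37386 bases away (75734575 to 75735075) rose from 8.30 to 24.3 per Mb with TNF and 23.4 per Mb with IL-1β.

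Over the 11 group means on the log2 scale, the peaks elsewhere in the genome most like the CCL26 start site peak were named for LINC01948 (Pearson r = 0.98), PTPRJ (0.98) and LRP5 (0.97), and r was 0.96, 0.98 and 0.96 without the library labelled IL-6 replicate 4. The peaks most like the POSTN start site peak were named for PLCB4 (0.94), LDB2 (0.94) and MOCS2 (0.93). The peaks most like the CCL24 start site peak were named for FAM57A (0.97), JAKMIP3 (0.95) and ESYT2 (0.95). These were picked as the highest of 168496 peaks for CCL26, 168614 for POSTN and 168495 for CCL24, so their size is a description with no test. With IL-13, the LINC01948 peak rose from 8.81 to 17.3 per Mb and the LRP5 peak from 16.6 to 31.3 per Mb. The PTPRJ peak was not called with IL-13 (adjusted p = 0.211, limma). Among the POSTN-like peaks LDB2 was called (adjusted p = 0.00532, limma), and PLCB4 (0.119) and MOCS2 (0.0873) were not. Without the library labelled IL-6 replicate 4, r was 0.93, 0.94 and 0.94 for the POSTN-like peaks and 0.92, 0.94 and 0.94 for the CCL24-like ones.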

How the data were processed

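ATAC-seq was measured in 44 libraries of Ccd18-Co. The authors processed the reads on hg38 with the ENCODE ATAC-seq pipeline and, per the labels, called peaks with MACS2. The deposited values are signal: for each peak, the coverage of its bases added up by the authors, with no scaling for depth. It is not a read count, so a count model was not used; 1 read adds up to 75. Each peak spans 500 bases. The study describes peaks of this fixed width from its single-cell ATAC-seq (MACS2, merged in ArchR) and a separate consensus set with peaks of varying length for bulk libraries, annotated with ChIPseeker; which of these the table was built on is not stated. Whole-read coverage blurs cut sites, and reads shared by overlapping features cannot be separated.

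Coverage was divided by the library total in Mb and by a composition factor (trimmed mean of log ratios, 30% and 5% trims), 0.5 was added and log2 taken. Peaks with a log2 mean of -3 or below were left out. limma 3.58.1 in R 4.3.3 was fitted across all 407176 tested peaks with group as the only term and eBayes with a trend, over 19 contrasts. P-values are two-sided and come from limma, adjusted by Benjamini-Hochberg within each contrast over every tested peak. The fit was tested on simulated data first. Depth runs from 148.8 to 823.1 Mb, and the floor of 3 reads, which covers counting error only, from 0.274 to 1.52 per Mb.

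Columns were matched to samples by library number. The members and lists were chosen with earlier results of these data known. Values per library are given for each gene's start site peak and for each member called with any cytokine. Other members are given by count and range. Likeness takes the 3 peaks of other genes over 1 Mb away with the highest r. Alternatives covered scaling, pseudocount, filter, weights, the groups fitted, a replicate block and each library left out. Sequences come from hg38 and annotation from GENCODE v44, or from RefSeq where that is named. The sequence upstream of CCL26 is not reported here.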

Additional observations from a re-analysis of the deposited data

Results flagged for a closer look

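Group values of the 10 named peaks were searched for a library far from the other 3 of its group, by the gap to its nearest neighbour over the range of the group, set against Dixon's 95% critical value. Of 110 groups, 12 held such a library, and chance flags about 1 in 20. At the CCL26 start site peak the library labelled IL-6 replicate 4 stood at 31.7 per Mb, with the next at 9.21. IL-1β replicate 1 was at 5.40 per Mb there against 4.19, and IL-17A replicate 4 at 6.32 against 9.42. At the POSTN start site peak IL-13 replicate 2 was at 4.18 per Mb against 2.51, TGFβ1 replicate 2 at 0.0139 against 0.959, TNF replicate 1 at 1.05 against 0.387 and OSM replicate 3 at 1.1 against 0.178. In the POSTN exon peak IL-1β replicate 2 was at 0.43 per Mb against 0 in the rest. In the TRPC4 intron peaks IL-1β replicate 2 was at 22.2 per Mb and TGFβ1 replicate 1 at 34.9 (37656576), IL-22 replicate 4 at 9.21 (37681585) and IL-1β replicate 4 at 22.4 (37701943).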

How the results depend on the processing

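No called log2 change of a named member or pathway peak that was followed across settings reversed under any of 12 alternative settings or with any of 44 libraries left out, and the CCL26 calls with IL-13, against unstimulated cells and against each other cytokine, held under all 12. Counts of the 38 peaks moved by over 1.5 times in these cases, and the cause was not tested. With limma voom weights they were 2 for IL-13, 0 for IL-1β and 0 for IL-6, and for IL-13 against IFNα, IFNγ, IL-1β and TGFβ1 3 each, against OSM 2, 26 over all 9 in place of 42. With a filter at a log2 mean above 0, where the low POSTN peaks are not tested, they were 2 for IL-13 and 3 and 2 against IFNα and OSM. IFNγ had 1 with cyclic loess, that filter, library quality weights or its own groups alone; IL-1β had 2 with its own groups alone. IL-6 had 0 with quality weights, its own groups alone or a trimmed mean over all tested peaks, chosen after seeing the data. TGFβ1 had 1 with library totals alone, cyclic loess, a pseudocount of 0.1, quality weights or that trimmed mean. With cyclic loess it was a peak other than those described for TGFβ1 above. With 1 library left out, counts ran from 1 to 2 for IFNα, 0 to 1 for IFNγ, 1 to 2 for IL-1β, 0 to 1 for IL-6, 1 to 3 for OSM and 0 to 2 for TGFβ1, and for IL-13 from 2 to 5 against IFNγ, 1 to 3 against IL-6 and 2 to 6 against TGFβ1. No pairing by replicate number was seen: none of 40 same-numbered pairs with unstimulated cells correlated over 0.1 (-0.0135 to 0.0255). The unstimulated library of the same number was the best partner in 15 of the 40. These correlations run over all tested peaks, low ones included, so they cannot exclude a weak pairing. With the replicate block 15 calls remained in number against 15. Over all tested peaks IL-6 had 436 calls, 23 without the library labelled IL-6 replicate 4 and 122 without unstimulated replicate 4. Depth limits the low peaks, the POSTN and CCL24 start site peaks among them.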
